A study of Mus musculus with 2 samples.

Results

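The genes described here encode the carriers that bring glucose, amino acids and lactate across membranes, read in CH cells, small circulating cells with a homing ability that the labels call PlCH. Members were chosen by gene symbol: the families Slc1a, Slc2a, Slc7a, Slc16a and Slc38a, the heavy chains Slc3a1 and Slc3a2, the sodium-driven glucose carriers Slc5a1 and Slc5a2, and the chaperones Bsg and Emb. In total, 61 of 18193 genes on the array belonged to this set, with 128 of the 34945 probe sets that named 1 gene. Slc2a7, Slc38a8 and Slc38a11 also fit the rule and were not analysed here. The CH cells came from peripheral blood of healthy C57bl/6 mice, and their RNA was read on 2 Affymetrix arrays of the mouse genome, given as biological replicates of 1 group. According to the labels each array held cells of 15 adult mice, male and female, aged 7 months, while the general methods of the study describe younger mice in smaller pools, so age and pool size are not settled. Cells were sorted as small, viable, DNA-containing events without CD45 and without the markers of mature blood lineages. With 1 group there was no comparison between conditions, and each level was set against a limit and against the spread between the arrays.

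Cells take up glucose by facilitated diffusion through carriers of the Slc2a family, and the Slc5a carriers move it against its gradient together with sodium. Amino acids enter through several families, among them exchangers made of a heavy chain (Slc3a1 or Slc3a2) joined to a light chain of the Slc7a family. Lactate and other monocarboxylates cross with a proton through Slc16a carriers, which reach the plasma membrane only with a chaperone such as basigin or embigin. Proliferating cells are known for high glucose uptake, lactate release and glutamine use, and pluripotent cells share these traits.

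Genes with 1 or more probe sets over 5 (log2 signal) on both arrays were counted as above the limit. In its clustering the study left out genes below this value in all samples of a larger set of arrays, which is a different use of the same value. The level of a gene is that of its probe set with the highest mean. By this call 45 of 61 transporter genes (73.8%) were above the limit, close to the 71.2% of all 18193 genes. Above 8 on both arrays the transporters were fewer, with 15 of 61 genes (24.6%), beside 37.0% of all genes. Their median level was 6.12, and that of all genes was 6.84. The share of all genes above 5 was larger with more probe sets, at 94.9% with 4 or more, 83.5% with 2 or 3 and 56.7% with 1. Among genes with 1 probe set, 14 of 25 transporters (56.0%) were above 5 and 3 (12.0%) above 8, beside 56.7% and 23.3% of all such genes. The share above 8 was also lower among transporters with 2 or 3 probe sets (34.5%, beside 47.0% of all such genes) and among the 7 with 4 or more (28.6%, beside 65.5%). These shares are descriptions, with no test of the list.

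The 15 genes above 8 came from every family but Slc5a: Slc2a1 and Slc2a3 for glucose, Slc3a2, Slc7a1, Slc7a5 and Slc7a6, Slc1a4 and Slc1a5, Slc38a1, Slc38a2, Slc38a4 and Slc38a10, and Slc16a1, Bsg and Emb. Just outside was Slc2a8, with 7.98 on array 1 and 8.06 on array 2, and just inside Slc38a1, with 8.04 and 8.25. In the plot of levels by family, most families have a few genes well to the right of 8 and the rest spread on both sides of 5, up to Slc2a8 at 8.02 and down to 3.27. The means of both arrays were also set against 5 with limma, using a spread shared over all probe sets. By limma, 75 of the 128 probe sets were above 5 at an adjusted p under 0.05, and 43 were below it. Of all 45037 probe sets 54.8% were above 5, but these include 9160 that name no gene and 932 that name several. Each of the 128 names 1 gene, so that share is not a matched background. A mean of 5 or below was found for 47 of the 128, beside 11712 of the 34945 that name 1 gene. Signals of different probe sets also depend on the affinity of their probes, so levels place each gene against the limit and do not rank transcripts.

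**Figure D1:**
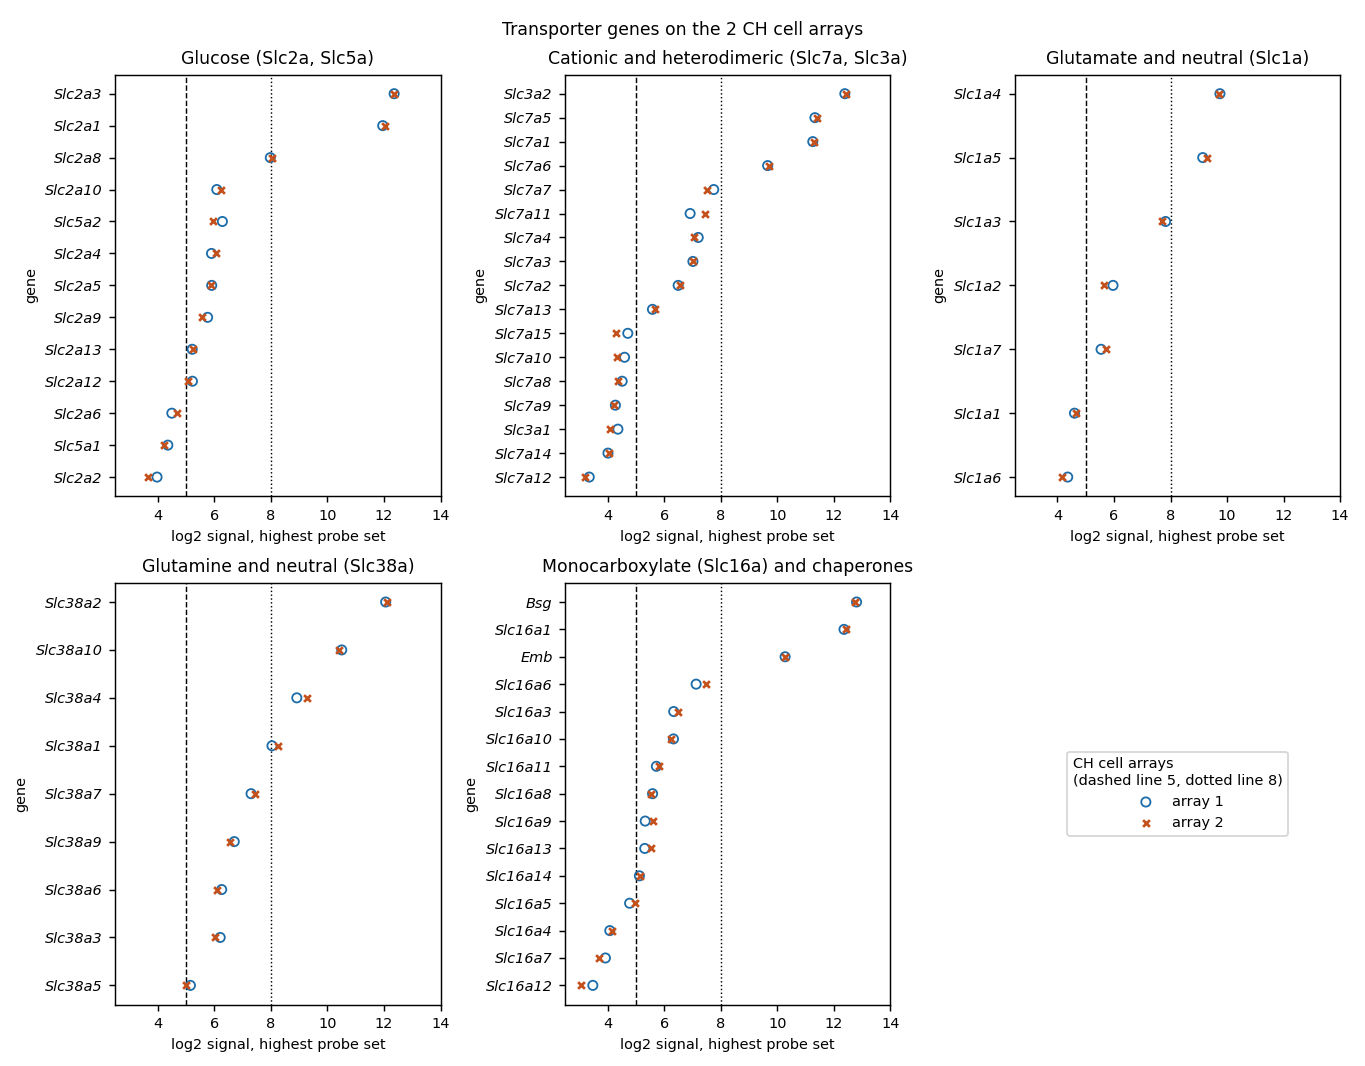
Log2 signal of the highest probe set of each of the 61 transporter genes (horizontal axis) in 5 families, with a circle for array 1 and a cross for array 2, a dashed line at 5 and a dotted line at 8. Slc2a3 (12.35), Slc3a2 (12.41) and Slc16a1 (12.39) lie far right of 8 on both arrays, while Slc2a2 (3.81), Slc7a12 (3.27) and Slc16a12 (3.27) lie left of 5.

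**Figure D2:**
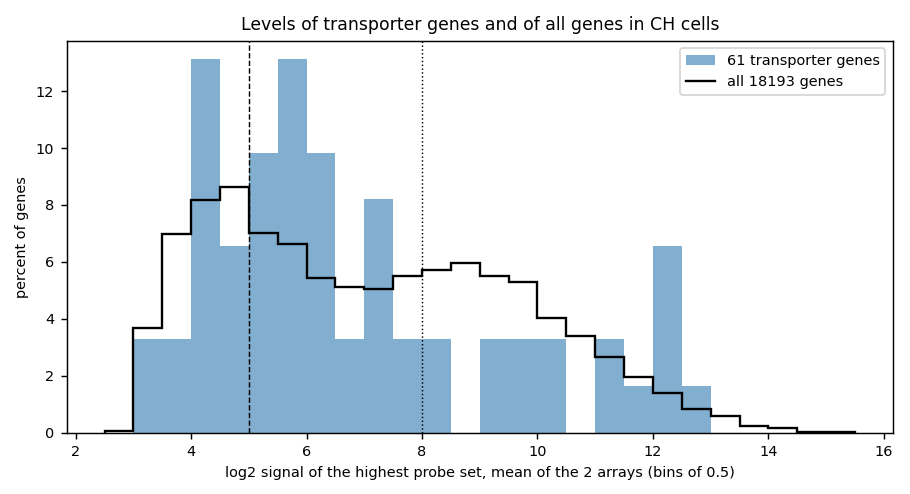
Percent of genes (vertical axis) by log2 signal of the highest probe set, mean of both arrays, in bins of 0.5, with filled bars for the 61 transporter genes and a line for all 18193 genes. Most transporters lie between 4 and 8 and 8 of them above 11, and 24.6% of them are above 8, beside 37.0% of all genes.

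A limit of 5 does not by itself separate a transcript from background. Receptors of smell and taste served as background genes. Of these 76 chemosensory receptors, 13 (17.1%) were above 5 as well, 11 of them with limma. The median of their probe sets was 4.06 and the 95th percentile 6.04. With that percentile as the limit, 29 of the 61 transporters were above it on both arrays, beside 57.4% of all genes. The other 16 of the 45 genes were at or below this level on at least 1 array, and their signal is not told apart here from that of the receptor genes. RNA came from pools of sorted cells, so a high level in few cells and a low level in many cannot be told apart.

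Of the 13 glucose carriers, Slc2a1 and Slc2a3 had signals far above the limit and 8 others were above 5 but not above 8. Thus 76.9% of these carriers were above 5 and 15.4% above 8, beside 71.2% and 37.0% of all genes. Slc2a1, the carrier of basal glucose uptake in most cells, read 11.95 on array 1 and 12.02 on array 2, with a mean of 11.99 ± 0.05 (SD, n = 2 arrays, adjusted p = 8.9e-08 from limma). All of its 3 probe sets were well above 8, the lowest at 10.49. Slc2a3, the high-affinity carrier of neurons, platelets and early embryos, read 12.36 and 12.35. Its probe sets did not match one another. Those ending in _s_at and _x_at, which can bind more than 1 transcript, were at 12.35 and 11.22, while the others were at 6.48 and 4.82. Without _s_at and _x_at probe sets the level of Slc2a3 was thus 6.48, above 5 but not above 8.

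The other glucose carriers that mark particular tissues were low. Slc2a4, the insulin-responsive carrier of muscle and fat, read 5.90 on array 1 and 6.06 on array 2, and Slc2a2, the carrier of liver and pancreatic beta cells, 3.97 and 3.66. Neither was above the 95th percentile of the receptor genes on both arrays, and Slc2a2 was below 5 on both. Slc2a8, an intracellular carrier, was at 8.02 ± 0.05 (SD, n = 2 arrays). Slc2a10 read 6.09 on array 1 and 6.22 on array 2 (6.15 ± 0.10). Slc2a5, which carries fructose, was at 5.89 ± 0.02. Slc2a9, which carries urate, read 5.76 on array 1 and 5.57 on array 2 with 1 probe set, and its other probe set was below 5, at 4.43. Slc2a13, a carrier of myo-inositol, was at 5.23 ± 0.02, and Slc2a12 was closest above the limit, at 5.22 and 5.06 (adjusted p = 0.14 from limma), with its other probe set at 3.73. Slc2a6, found on lysosomes, was below 5 at 4.59 ± 0.14. Of the sodium-driven carriers of gut and kidney, Slc5a1 was below the limit at 4.28 ± 0.11. Slc5a2 read 6.28 and 5.96 with 1 probe set and 5.72 and 6.17 with the other, so the arrays differed in opposite directions.

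Genes of glucose use downstream of uptake were mostly well above 8. Of 8 genes of sugar phosphorylation, pyruvate and lactate, 7 were above 5 and 6 above 8, beside 71.2% and 37.0% of all genes. Ldha, the lactate dehydrogenase subunit that favours lactate formation, was at 13.33 ± 0.03 (SD, n = 2 arrays) and Pkm, pyruvate kinase, at 13.06 ± 0.07. The gene not above 5 was Ldhc, the form of testis, at 4.81 ± 0.12. All 6 genes listed as brakes or drivers of glucose uptake were above 5, among them Hif1a, a driver of Slc2a1 and lactate genes, at 12.14 ± 0.04 and Myc at 11.44 ± 0.03. Txnip, which lowers glucose uptake, was at 8.42 ± 0.04.

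In the Slc7a and Slc3a group, 10 of 17 genes were above 5 (58.8%) and 4 above 8 (23.5%), beside 71.2% and 37.0% of all genes. The heavy chain Slc3a2, known as CD98, read 12.39 on array 1 and 12.42 on array 2. Slc3a1, the heavy chain of kidney and gut, read 4.36 and 4.08, below the limit on both arrays, and so did its light chain Slc7a9, with 4.28 and 4.24. Of the 6 light chains that join Slc3a2, 4 were above 5 and 2 above 8. Slc7a5, which takes up leucine and other large neutral amino acids, read 11.33 and 11.39 (11.36 ± 0.04, SD, n = 2 arrays, adjusted p = 9e-08 from limma). Slc7a6, an exchanger of cationic for neutral amino acids, read 9.66 and 9.72, with its other probe set at 9.31. Slc7a7, which has the same kind of exchange in kidney, gut and macrophages, was at 7.63 ± 0.18 and its other probe set at 6.17. Slc7a8, a further carrier of neutral amino acids, was below 5 at 4.44 ± 0.11, as was Slc7a10, a carrier of small neutral amino acids, at 4.46 ± 0.20.

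Slc7a11, the light chain that takes up cystine in exchange for glutamate, read 6.92 on array 1 and 7.45 on array 2. This was the largest difference between the arrays among the highest probe sets of members above 5, and the other probe set, at 6.85 and 6.78, did not share it. The list of genes of glutamine, cystine and glutathione use had 6 of 6 genes above 8, beside 37.0% of all genes. Gclm, a subunit of the first enzyme of glutathione synthesis, was at 10.54 ± 0.02 (SD, n = 2 arrays). Glud1, glutamate dehydrogenase, was at 11.62 ± 0.08 and Gpx4, the glutathione peroxidase of lipids, at 12.40 ± 0.10.

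All 3 carriers of cationic amino acids were above the limit. Slc7a1, the arginine and lysine carrier of most cells outside the liver, read 11.26 on array 1 and 11.31 on array 2, and a further probe set was at 10.37, while the third was below 5, at 4.53. Slc7a3, known from brain and early embryonic cells, read 7.02 and 7.03. Slc7a2, the inducible form of liver and macrophages, read 6.50 and 6.55 with 1 probe set only. Its next probe set read 5.01 and 4.81, above 5 on 1 array only, and the others were below 5, the lowest at 3.26. Slc7a4 read 7.20 and 7.05 with 1 probe set, while another read 4.83 and 5.09, above 5 on 1 array only, and the third was at 4.52. Slc7a13, a carrier of kidney, read 5.59 on array 1 and 5.68 on array 2 with 1 of its 2 probe sets (5.63 ± 0.07), and the other was at 3.27. The members below 5 that remain, Slc7a12, Slc7a14 and Slc7a15, were at 3.27 to 4.50.

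The Slc1a family holds glutamate carriers and carriers of neutral amino acids, and in CH cells the 2 carriers of neutral amino acids were above 8 and none of the 5 glutamate carriers was. In the family 71.4% of genes were above 5 and 28.6% above 8, beside 71.2% and 37.0% of all genes. Slc1a4, which exchanges alanine, serine and cysteine, read 9.75 on array 1 and 9.73 on array 2 (9.74 ± 0.01, SD, n = 2 arrays), and its lowest probe set was at 8.86. Slc1a5, a main entry for glutamine in proliferating cells, read 9.14 and 9.28, with its other probe set at 5.21. Slc1a3, the glutamate carrier of glial cells, read 7.83 and 7.68, and 4 of its 6 probe sets were above 5, with the lowest at 3.17. Slc1a2, the main glutamate carrier of astrocytes, was above 5 with 1 of 5 probe sets only, at 5.97 and 5.66. Slc1a7, known from retina, was at 5.62 ± 0.11, while Slc1a1 of neurons and kidney and Slc1a6 of Purkinje cells were below 5, at 4.64 ± 0.05 and 4.27 ± 0.13. As a description of the tissue markers, Gfap and Aqp4, which mark astrocytes, were at 5.39 and 4.57, and 5 of 7 genes of neurons and astrocytes were above 5 with none above 8. The neuronal genes Rbfox3 and Tubb3 were highest in that list, at 6.84 and 6.73, and Snap25 was at 3.37.

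The Slc38a family, carriers of glutamine and small neutral amino acids, was the family with every measured gene above 5, at 9 of 9, and 4 of the 9 were above 8, beside 71.2% and 37.0% of all genes. Of the 9 genes 7 have 2 or more probe sets, a class in which more of all genes were above 5 (83.5% with 2 or 3 and 94.9% with 4 or more). At the higher limit of 6 the count was 8 of 9, beside 57.8% of all genes. At the 95th percentile of receptor probe sets, 6.04, it was 7 of 9, beside 57.4% of all genes. All 3 genes of system A, the sodium-coupled uptake that cells raise when amino acids are scarce, were among these 4. Slc38a2, the member that responds to amino acid shortage, read 12.06 on array 1 and 12.12 on array 2, with its other probe sets at 8.57 and 6.45. Slc38a1 read 8.04 and 8.25, with its other probe set at 8.09. Slc38a4, an imprinted gene known from liver and placenta, read 8.92 and 9.28 with 1 probe set and 9.11 and 9.08 with the other, so the difference of the first was not shared. Slc38a10 read 10.51 and 10.42, and all of its 7 probe sets were above 5. The system N carriers of liver and brain were not above 8, with Slc38a3 at 6.12 ± 0.12 (SD, n = 2 arrays) and Slc38a5 at 5.15 and 5.01, which was not above 5 with limma (adjusted p = 0.36).

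Among the Slc38a carriers of lysosomes, Slc38a7, which releases glutamine, read 7.30 on array 1 and 7.44 on array 2. Slc38a9, the arginine sensor that acts on the growth kinase complex mTORC1, read 6.70 and 6.57, and 5 of its 7 probe sets were above 5 on both arrays. A sixth read 5.32 and 4.81, above 5 on 1 array only, and the lowest was at 4.31. Slc38a6 read 6.26 and 6.08, with its other probe set at 4.49. The list of amino acid sensing by mTORC1 had 12 of 12 genes above 5 and 10 above 8, beside 71.2% and 37.0% of all genes. Lamtor1, part of the lysosomal anchor of mTORC1, was at 12.13 ± 0.05 (SD, n = 2 arrays). Rraga, a small GTPase of the amino acid signal, was at 11.69 ± 0.08.

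The list of genes of the response to amino acid shortage had 6 of 6 above 5 and 5 above 8, beside 71.2% and 37.0% of all genes. Atf4, the transcription factor of this response, was at 13.45 ± 0.01 (SD, n = 2 arrays), and Ddit3, one of its targets, at 11.96 ± 0.12. Asns, asparagine synthetase and also a target, was at 11.36 ± 0.01. Eif2ak4, the kinase that senses uncharged transfer RNA, was the gene not above 8, at 6.51 ± 0.04. Amino acid carriers of other families had 10 of 12 genes above 5 and 3 above 8, among them Slc6a6, a taurine carrier, at 10.43 ± 0.05 and Slc6a9, a glycine carrier, at 9.54 ± 0.11. Those below 5 were Slc6a14 at 3.96 ± 0.05 and Slc6a20a at 3.16 ± 0.09.

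Since Atf4 binds a composite element whose core can be written TGATGNAA, the promoter windows of the members were searched for it on both strands. Windows of 300 bases, 250 before and 50 after each annotated start (RefSeq, GRCm38.p6), were at hand for 44 of the 61 genes, in 54 windows. The core was present in 4 of the 54 windows, those of Slc1a4, Slc7a7 and Slc7a11, and in 3.97% of all 32851 windows of the same length. The windows of Slc7a11 and Slc1a4, 2 carriers above 5 that are known targets of Atf4, are shown with the core in capitals, 5′ to 3′ on the strand of the gene. That of Slc7a11 lies at chr3:50443564-50443863 on the minus strand and holds the core on both strands, and that of Slc1a4 lies at chr11:20332664-20332963 on the minus strand and holds it on the opposite strand of the gene, read TTGCATCA.
Slc7a11: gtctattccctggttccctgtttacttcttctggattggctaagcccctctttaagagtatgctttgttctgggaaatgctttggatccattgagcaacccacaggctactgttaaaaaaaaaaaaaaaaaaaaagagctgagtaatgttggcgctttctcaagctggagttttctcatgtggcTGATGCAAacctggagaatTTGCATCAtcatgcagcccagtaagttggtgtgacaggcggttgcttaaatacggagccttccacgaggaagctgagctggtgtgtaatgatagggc
Slc1a4: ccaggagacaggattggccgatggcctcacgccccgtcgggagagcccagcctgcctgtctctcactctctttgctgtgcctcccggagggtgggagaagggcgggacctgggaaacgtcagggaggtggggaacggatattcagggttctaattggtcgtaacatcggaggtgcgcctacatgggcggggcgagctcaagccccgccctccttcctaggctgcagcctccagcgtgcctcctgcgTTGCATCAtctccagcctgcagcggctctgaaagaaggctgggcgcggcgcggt
The windows of Slc3a2, Slc38a2 and Slc7a1, carriers above 8 (12.41, 12.09 and 11.29), did not hold the core. The windows end 50 bases after the start, so a core further into a gene could not be found, and its absence from a gene was not tested. A match is a description of the letters and no evidence of binding. Both Slc7a7 starts that matched belong to a gene with 5 listed starts. Their windows overlap and share 1 match, at chr14:54417938-54417945, so the 4 windows stand for 3 of the 44 genes.

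Among the carriers of lactate and other monocarboxylates and their chaperones, 11 of 15 genes were above 5 and 3 above 8. The shares of all genes above 5 and above 8 were 71.2% and 37.0%. Bsg, which encodes basigin, the chaperone of Slc16a1 and Slc16a3, read 12.81 on array 1 and 12.75 on array 2. Slc16a1, the carrier of lactate and pyruvate found in most cells, read 12.36 and 12.42 (12.39 ± 0.04, SD, n = 2 arrays, adjusted p = 8.9e-08 from limma), while its other probe set was below 5, at 4.62. Slc16a3, the lactate exporter of glycolytic and hypoxic cells, read 6.34 and 6.51, above 5 but not above 8. Emb, which encodes embigin, a chaperone of Slc16a7, read 10.28 on both arrays, with further probe sets at 9.28 and 3.69. Slc16a7 itself, the high-affinity carrier of pyruvate and lactate, was below 5 with its 1 probe set, at 3.92 and 3.70. Slc16a8, the lactate carrier of the retinal pigment epithelium, read 5.59 on array 1 and 5.54 on array 2 (5.57 ± 0.03), and its other probe set was at 3.63.

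Other members of the family include carriers of aromatic amino acids and of creatine. Slc16a6 read 7.13 on array 1 and 7.47 on array 2. Slc16a10, a carrier of aromatic amino acids, read 6.33 and 6.23, a second probe set read 5.25 and 5.68, and the others were below 5, at 4.64 and 3.65. Slc16a9 read 5.33 and 5.60, and its next probe set 5.30 and 4.80, above 5 on 1 array only, with the third at 3.87. Slc16a11 was at 5.77 ± 0.06 (SD, n = 2 arrays) and Slc16a13 at 5.42 ± 0.16. Slc16a14 read 5.12 and 5.13, which was not above 5 with limma (adjusted p = 0.13), and 3.77 with its other probe set. Below 5 on both arrays were Slc16a5 at 4.88 ± 0.14, Slc16a4 at 4.12 ± 0.06 and Slc16a12, a creatine carrier, at 3.27 ± 0.29.

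The window of Slc16a1, at chr3:104638414-104638713 on the plus strand of GRCm38.p6, is shown because it holds an E-box, CACGTG, the element that Myc and related factors bind, and 42 CpG dinucleotides. The E-box is in capitals.
Slc16a1: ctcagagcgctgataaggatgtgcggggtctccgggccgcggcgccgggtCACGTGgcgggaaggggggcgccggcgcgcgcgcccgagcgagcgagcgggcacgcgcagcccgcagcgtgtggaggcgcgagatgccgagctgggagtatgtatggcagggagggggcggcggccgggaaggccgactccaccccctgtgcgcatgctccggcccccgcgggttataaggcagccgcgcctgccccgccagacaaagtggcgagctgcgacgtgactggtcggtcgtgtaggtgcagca
The E-box, which reads the same on both strands, was present in 8 of the 54 windows and in 7.15% of all windows. The other 7 were those of Slc16a12, Slc1a6, Slc1a7, Slc38a5, Slc38a7, Slc5a1 and Slc7a14, of which Slc16a12, Slc1a6, Slc5a1 and Slc7a14 were not above 5, so genes with the letters were found on both sides of the limit.

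Among the 38 members with 1 listed start, CpG content of the promoter did not order the genes by level. Their median count of CpG per window was 18 for the 7 genes above 8, 12.5 for the 20 above 5 but not 8 and 18 for the 11 not above 5. These 7 are a part of the 15 transporter genes above 8, as the others had no window or several listed starts. For all genes with 1 listed start the medians were 23, 17 and 6 in the same classes. Members not above 5 had windows with up to 32 CpG, as in Slc1a1 and Slc1a6. These are counts of letters over genes, with no test.

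**Figure D3:**
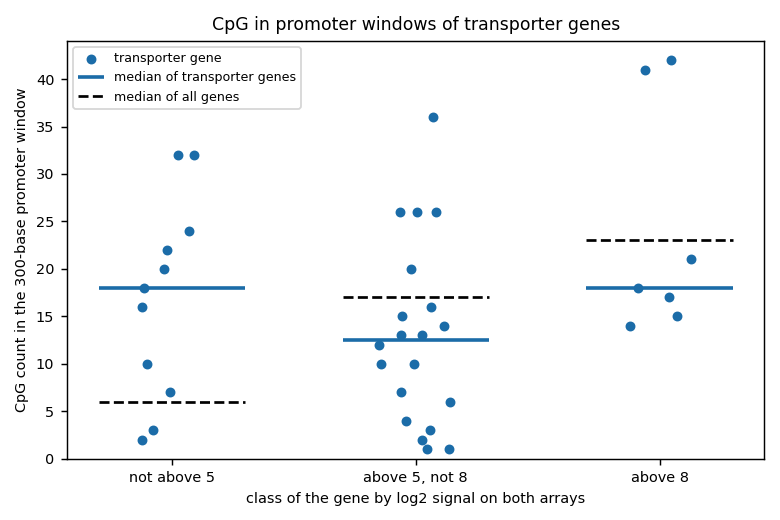
CpG count per 300-base promoter window (vertical axis) of 38 transporter genes with 1 listed start, by class of log2 signal on both arrays, with a point per gene, a solid bar at their median and a dashed bar at the median of all genes of the class. The transporter medians are 18, 12.5 and 18 from the lowest class to the highest, and those of all genes 6, 17 and 23.

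Probe sets of 1 transporter gene often lay on different sides of the limit. Of the 36 members with more than 1 probe set, 17 had some above 5 on both arrays and some not. In 4 of these, Slc16a1, Slc2a3, Slc7a1 and Emb, the highest probe set was above 8 and the lowest below 5. The same count was not made over all genes, so whether it is particular to transporters is not known. Of the 128 probe sets, 79 were above 5 on both arrays, 45 on neither and 4 on 1 array only. With the median probe set of each gene in place of the highest, 36 of 61 transporters were above 5, beside 65.2% of all genes.

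**Figure D4:**
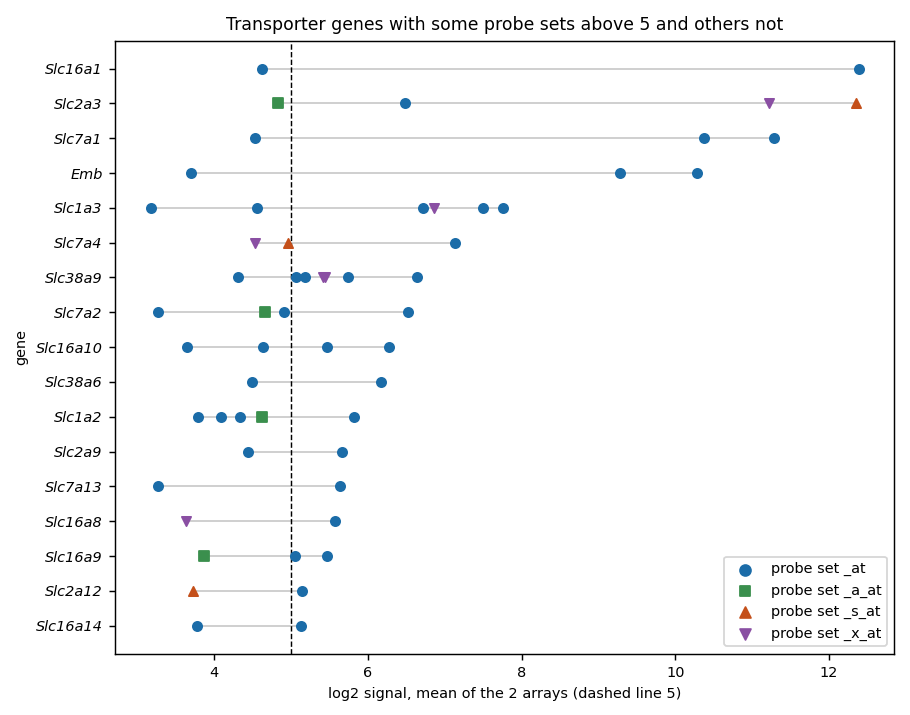
Mean log2 signal of both arrays (horizontal axis) for every probe set of the 17 transporter genes with probe sets on both sides of 5, with the marker giving the ending of the probe set name and a grey line joining the probe sets of a gene. In Slc16a1 the probe sets are at 12.39 and 4.62, and in Slc2a3 the _s_at and _x_at probe sets (12.35 and 11.22) lie right of the others.

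The arrays gave nearly the same levels for transporters. The difference between array 1 and array 2 had an SD of 0.20 over the 128 member probe sets and of 0.20 over all 45037, and 9 of the 128 (7.03%) lay beyond 2 SD, beside 5.38% of all probe sets. For member probe sets with a mean above 8 the SD of the difference was 0.10, and for those at 5 or below it was 0.21. After Slc7a11, the highest probe sets of members above 5 that differed most were those of Slc38a4 (array 1 minus array 2 of -0.36), Slc16a6 (-0.34), Slc5a2 (0.32) and Slc1a2 (0.31), all within 2 SD. The largest difference of any member probe set, -0.64, was in 1 of the 7 probe sets of Slc38a10, at 6.64 and 7.28, and its highest probe set differed by 0.08. With 1 array per pool these differences have no test.

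**Figure D5:**
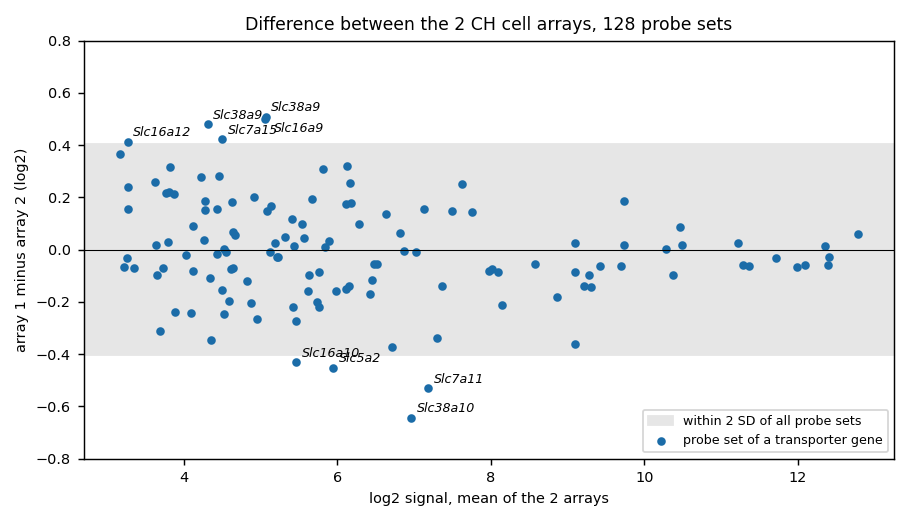
Array 1 minus array 2 (log2, vertical axis) against the mean of both arrays (log2, horizontal axis) for the 128 probe sets of transporter genes, with a grey band of 2 SD (0.404) of the difference over all probe sets. The 9 named probe sets lie outside the band, and those with a mean above 8 all lie inside it.

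Markers of cells that the sort should hold or leave out were read on the same arrays. For the counts that follow, 71.2% of all genes were above 5 and 37.0% above 8. Ptprc, which encodes CD45, was at 4.95 on array 1 and 5.24 on array 2, and the other matched lineage targets Cd5 and Itgam were below 5. Of 13 leukocyte genes, 9 were above 5 and 1 above 8, namely Lyz2 at 9.58, with a summed linear signal of 1590 on array 1 and 1446 on array 2. Csf1r, the receptor of monocytes and macrophages, was at 7.42, and the B cell genes Cd79a and Ms4a1 were at 4.72 and 4.33. The T cell genes Cd3e, Cd4 and Cd8a were above 5, at 6.61, 6.08 and 5.96, as were S100a8 and S100a9 of neutrophils and monocytes, at 6.48 and 6.54. All 6 platelet genes were above 5 and none above 8, the highest being Itga2b at 7.18 and Ppbp at 6.99, with a sum of 521 and 554. Platelets use Slc2a3. Of 5 erythroid genes, 1 was above 5, Klf1 at 5.90, while Hba-a1, Slc4a1, Alas2 and Epb42 were at 4.22, 4.44, 4.91 and 4.62, with a list sum of 147 and 164. Of 8 kidney and liver genes 4 were above 5 and none above 8, with a sum of 325 and 309, with Alb of liver at 4.11 and Umod of kidney at 3.12. In the same list Ttr and Apoa1 were highest, at 6.15 and 6.08, the kidney genes Slc12a1 and Aqp2 were above 5, at 5.81 and 5.51, and Lrp2 and Cyp2e1 were at 4.72 and 4.55. Of 10 mesenchymal genes all 10 were above 5 and 8 above 8, with Col1a2 at 14.27, Fn1 at 13.93 and a sum of 59685 and 57812. Of 8 pluripotency genes all 8 were above 5 and 4 above 8, with a sum of 3337 and 3546. Those above 8 were Tdgf1 at 9.66, Lin28a at 9.62, Pou5f1 at 9.49 and Klf4 at 9.23. The others were Nanog at 7.78, Sox2 at 7.11, Zfp42 at 6.59 and Esrrb at 5.88. Esrrb was below the 95th percentile of the receptor probe sets, 6.04. The sums depend on the probes and the number of genes of each list and are not set against each other. How far each of these cell types contributes to the transporter signals was not tested.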

How the data were processed

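RNA of sorted CH cells was measured on 2 Affymetrix arrays of the mouse genome. The deposited values are log2 signals per probe set, and the methods of the authors describe RMA with quantile normalisation jointly with public series. Whether the deposited values stem from that joint run, and the tool versions, are not given in the sources used here. Of 45101 probe sets, 64 controls were removed. Genes were named through the platform annotation, where 34945 probe sets name 1 gene, 932 several and 9160 none, and 34741 of the first matched RefSeq (GRCm38.p6) by Entrez identifier, with 0 symbols changed. A probe set that names Slc1a2 together with another gene was left out.

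Members, families and lists were chosen with earlier results of these data known. A gene passed when 1 probe set exceeded 5 on both arrays. Means were set against 5 with limma 3.58.1 in R 4.3.3 (intercept alone, empirical Bayes, two-sided, Benjamini-Hochberg over 45037 probe sets). On simulated data for this test, 100% of 100 probe sets raised to 0.5 above the limit and 100% of 100 raised to 1 above it were recovered, and 0.0328% of 18295 at or below it were called. The simulation gave all probe sets the same spread, and those at or below the limit kept their measured means. In the data the SD of the difference between arrays was 0.125 above 8 and 0.221 at 5 or below. The simulation therefore does not show how the test does with an uneven spread. The number of arrays limits the precision. Every member is named. Values on both arrays were given for the highest probe set of up to 4 genes per family with the highest mean. They were also given for the highest probe set of members with probe sets on both sides of 5, whose other probe sets were mostly given by their mean. Probe sets above 5 on 1 array only and the 5 largest differences between arrays were treated the same way. Of each related list the genes with the highest mean and any below 5 were named. Some further genes of the lists were named after their values were seen. Limits, normalization, probe set choice and arrays were varied. Python 3.11.15, numpy 2.4.6, pandas 2.3.3 and matplotlib 3.10.9 were used.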

Additional observations from a re-analysis of the deposited data

How the results depend on the processing

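The alternatives were listed together with the lists of genes, apart from the restriction to genes with 1 probe set, which was chosen after seeing the data. No paired analysis was possible because both arrays belong to the same group. A higher limit admits fewer genes by construction. With a limit of 8 the count of transporter genes was 15, with 2 glucose carriers, 2 Slc1a genes, 4 of Slc7a and Slc3a, 4 Slc38a genes and 3 of Slc16a, Bsg and Emb. With a limit of 6 there were 30 of 61 transporter genes (49.2%), beside 57.8% of all genes. Of these 30, 4 were glucose carriers, 3 Slc1a genes and 6 of Slc16a, Bsg and Emb. With the 95th percentile of receptor probe sets there were 29 transporter genes, of which 4 were glucose carriers, 3 Slc1a genes and 6 of Slc16a, Bsg and Emb. Among genes with 1 probe set the counts were 14 of 25 transporters, 3 of 5 glucose carriers, 1 of 2 Slc1a genes, 3 of 9 of Slc7a and Slc3a, 2 of 2 Slc38a genes and 5 of 7 of Slc16a, Bsg and Emb, with a median level of 5.23. With the median probe set of each gene, 7 genes of Slc16a, Bsg and Emb were above 5 and the median level was 5.42. That choice also put below 5 the genes Slc16a14 (4.45), Slc16a8 (4.60), Slc1a2 (4.34), Slc2a12 (4.43), Slc7a13 (4.45), Slc7a2 (4.79) and Slc7a4 (4.96), and left Slc16a9 and Slc16a10 above 5 on 1 array only, for 36 transporter genes in all. With either array alone the count of transporters was 45 and 45, and the median level ranged from 6.06 to 6.09. With limma 42 of the 61 genes were above 5, without Slc2a12, Slc38a5 and Slc16a14. No count moved by over 1.5 times after quantile normalization or once _s_at and _x_at probe sets were left out.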
